A study of Mus musculus with 49 samples.

Results

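The INO80 complex was followed here through 10 of its genes, Ino80, Ino80b, Ino80c, Ino80d, Ino80e, Actr5, Actr8, Nfrkb, Ruvbl1 and Ruvbl2, out of 54838 genes with a row in the deposited tables. All 10 were detected. Ino80b was selected on the measurements themselves, because it was lower after loss of FOXJ3 (log2 fold change −1.06 ± 0.26, SE) and lower after loss of TBP (−2.11 ± 0.43). Its fold changes in these comparisons are therefore given as a description, with no test. The other 9 genes were taken because they encode subunits of the same complex, and they were tested.

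The libraries came from single mouse embryos at the late 2-cell stage, made by Smart-seq+5', a full-length cDNA method from which only the reads at the 5' end of each transcript were counted. Zygotes of young adult F1 (C57BL/6J × CBA/H) females mated with F1 males received an antibody, and 4 h later mRNA for mCherry-Trim21, and were collected 48 h post-hCG. This is Trim-Away, in which the ubiquitin ligase TRIM21 brings an antibody-bound protein to the proteasome. Loss of function (LOF) embryos received a mouse monoclonal anti-TBP antibody or a rabbit polyclonal anti-FOXJ3 antibody, and CONTROL embryos received normal mouse or normal rabbit IgG. LOF and CONTROL embryos thus all carried an injected antibody and mCherry-Trim21. Of 49 embryos, 47 passed the quality limits, with 9 LOF and 9 CONTROL embryos for TBP and 16 LOF and 13 CONTROL embryos for FOXJ3. The FOXJ3 libraries were made in 2 batches that differed in buffer aliquots. Batch 1 gave 9 LOF and 7 CONTROL embryos, and batch 2 gave 7 and 6. Trim-Away acts on the protein, which was not measured in these libraries.

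INO80 is an ATP-dependent chromatin remodeller that slides nucleosomes and exchanges the histone variant H2A.Z, and it works at promoters, replication forks and sites of DNA damage. The INO80 protein holds the motor and the scaffold. RUVBL1 and RUVBL2 are AAA+ ATPases that form a ring on which the complex is built, and the SRCAP and TIP60 complexes use the same ring. ACTR5 and INO80C form a module beside the motor, ACTR8 sits with actin on another module that binds the DNA entering the nucleosome, and INO80B is a conserved subunit, known in yeast as Ies2, that activates the motor. NFRKB, INO80D and INO80E belong to a part of the complex found in animals. TBP binds the TATA box and takes part in initiation by RNA polymerases in general. FOXJ3 is a forkhead transcription factor.

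Ino80b (ENSMUSG00000030034.11) lies on the minus strand of chromosome 6, chr6:83121765-83125431 in GRCm38, and is protein coding. The bases upstream of the start sites are shown because TBP normally binds about this far from a start. RefSeq promoter windows in GRCm38.p6 matched 6 of the 10 genes. No window was matched for Actr5, Actr8, Ino80c or Ino80d. The lines below give positions −45 to −16 from each RefSeq start, 5′ to 3′ on the strand of the gene, with runs of A and T of at least 4 letters in capitals. This stretch was chosen for display after the values were seen. The RefSeq start of Ino80b, at 83125119, lies within the annotated gene.
Ino80b, chr6:83125135-83125164, minus strand: ccggTTATTTTgctggattccgttcttccg
Ino80, chr2:119477703-119477732, minus strand: cagggctaagccggccgagtacctgctcga
Ino80e, start at 126861463, chr7:126861479-126861508, minus strand: aaggAAATTgctgaaggtttcccgagacaa
Ino80e, start at 126862372, chr7:126862388-126862417, minus strand: TTTTcttcaaggctggtttcccgagcgaca
Nfrkb, chr9:31386147-31386176, plus strand: aggtcccgccccttccgctgccggagcccg
Ruvbl1, chr6:88465364-88465393, plus strand: cTTTTAgccAATAgaaagcgaagccttctc
Ruvbl2, chr7:45434480-45434509, minus strand: aggggggaggaggctaggtaagaggaggag

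The Ino80b stretch had the longest run of A and T of these 7, at 7 letters. The share of all windows with such a run was not counted, so the run is a description only. Over the whole windows, GC content was 51.3% for Ino80b, 45.7% for Ruvbl1 and 70.0% for Ino80. Each window was searched on both strands for TATAAA (the TATA box), TGTTTAC (a forkhead core) and AAGATGGC (YY1 letters). These were held by 13.6%, 3.65% and 2.75% of all 32851 promoter windows of the table, respectively. None of the 7 windows held TGTTTAC, and TATAAA was found once, on the reverse strand of Ruvbl1 at −205. Only the Ino80b window held AAGATGGC, shown in capitals below. YY1 is a zinc finger protein that also associates with INO80. A match of letters is a description of the window and says nothing of binding.
Ino80b, −228 to −199, chr6:83125318-83125347, minus strand: gttttgagaacAAGATGGCattaagcctgg

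Depth was 1103569 to 5434808 reads per embryo, summed over genes, transposable elements, ERCC spike-ins and the mCherry-Trim21 construct. ERCC spike-ins took 4.29% ± 1.19 (SD, n = 9) of reads in TBP LOF and 2.76% ± 0.372 (n = 9) in TBP CONTROL embryos, and the TBP comparison was scaled on them. The transcript of the targeted gene Tbp was lower upon TBP LOF (log2 fold change −2.14 ± 0.37, adjusted p = 5.28e-06 by the quasi-likelihood test of edgeR), with no overlap between the groups. Foxj3 had 0.28 ± 0.13 upon FOXJ3 LOF (adjusted p = 0.861), which does not bear on the protein. All 6 late 2-cell marker genes had reads in every group, and their sum was 243 to 413 CPM in TBP LOF against 86.9 to 264 in TBP CONTROL, and 112 to 402 in FOXJ3 LOF against 105 to 691 in FOXJ3 CONTROL. CPM is a share of the reads of an embryo. On the ERCC scale the median log2 fold change of these 6 upon TBP LOF was 0.20 (−1.24 to 1.38). Of them 1 was called higher and 0 lower (edgeR), where 1.34% of all features were called higher and 29.7% lower. Upon FOXJ3 LOF (TMM scale) the median log2 fold change of these 6 was −0.47 (−1.19 to −0.09), against −0.03 for all genes. There 0 were called, and 2 had an unadjusted p under 0.05 (edgeR), as had 1115 of all 19518 features. The 6 cumulus or granulosa markers summed to 6.45 to 47.4 CPM over all groups, with Inhba at 0 throughout. Has2 and Ptx3 were also at 0 in both TBP groups, and only Amhr2 had reads in enough embryos for the FOXJ3 fit. The 5 markers of later embryo lineages summed to 0 to 35.5 CPM. Embryos 2 and 3 of the batch 1 FOXJ3 CONTROL group stood apart, with late 2-cell marker sums of 483 and 691 CPM against at most 349 in the other FOXJ3 CONTROL embryos. The main FOXJ3 values are also given without them. That choice was made after the values were seen, on the summed level of the complex's genes. The part of the marker sums and spike-in shares in the results was not tested. Each library was a whole embryo, so fewer cells of a kind and less RNA per cell cannot be told apart.

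In CONTROL embryos Ruvbl1 was the most abundant transcript of the complex per length and Actr8 the least. Over the 22 CONTROL embryos Ruvbl1 stood at 83.1 ± 26.6 CPM per kb of exons (SD). Ino80c (16 ± 7.57) and Ruvbl2 (15.2 ± 8.74) followed. Ino80b came next in that order, at 8.77 ± 3.80 CPM per kb. Below it stood Ino80e (4.75 ± 2.30), Actr5 (3.80 ± 2.17), Ino80d (2.83 ± 1.05), Ino80 (2.60 ± 0.904), Nfrkb (2.06 ± 0.675) and Actr8 (0.815 ± 0.481). Neighbours in the order were compared by their mean log2 ratio within embryos against the SD of that ratio. On this scale Ruvbl1 was above Ino80c in 22 of 22 embryos, Ino80b above Ino80e in 18 of 22 and Nfrkb above Actr8 in 21 of 22, each by more than the SD. The other neighbours did not differ beyond their spread, including Ruvbl2 and Ino80b, whose mean log2 ratio of 0.73 had an SD of 0.74. Leaving out the 2 CONTROL embryos that stood apart kept this order of means, with Ino80b at 9.38. Because reads came from transcript 5' ends, dividing by exon length lowers the value of long genes, and the order without that division was another one. In CPM, Ruvbl1 was still highest (158) and Actr8 lowest (7.34), but Ino80d was at rank 2 (50.04) and Ino80b at rank 9 (14 ± 6.06). In CPM Ino80e (36.3) and Actr5 (15.9) stood above Ino80b, so the place of Ino80b among the genes depends on the scale. Actr5 was above Ino80b in only 12 of 22 embryos. Their mean log2 ratio of 0.13 had an SD of 0.86, so these 2 did not differ beyond their spread.

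Ino80b had a mean of 27.9 reads per CONTROL embryo, and its CPM had a coefficient of variation of 43.3% over the 22 embryos. Levels of the 10 genes were compared among the 3 sets of CONTROL embryos, which for Ino80b stood at 9.09 ± 4.20 (TBP, n = 9), 7.61 ± 4.20 (FOXJ3 batch 1, n = 7) and 9.65 ± 2.87 (FOXJ3 batch 2, n = 6) CPM per kb. With edgeR, 0 of 10 differed among the sets, 0 had an unadjusted p under 0.05 and DESeq2 also called 0, where 0.233% of all 19730 features tested were called. Adjusted p ran from 0.661 for Ruvbl1 to 0.994 for Ruvbl2 and was 0.812 for Ino80b. The kind of IgG, the batch and the experiment cannot be told apart between the TBP and FOXJ3 sets.

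**Figure D1:**
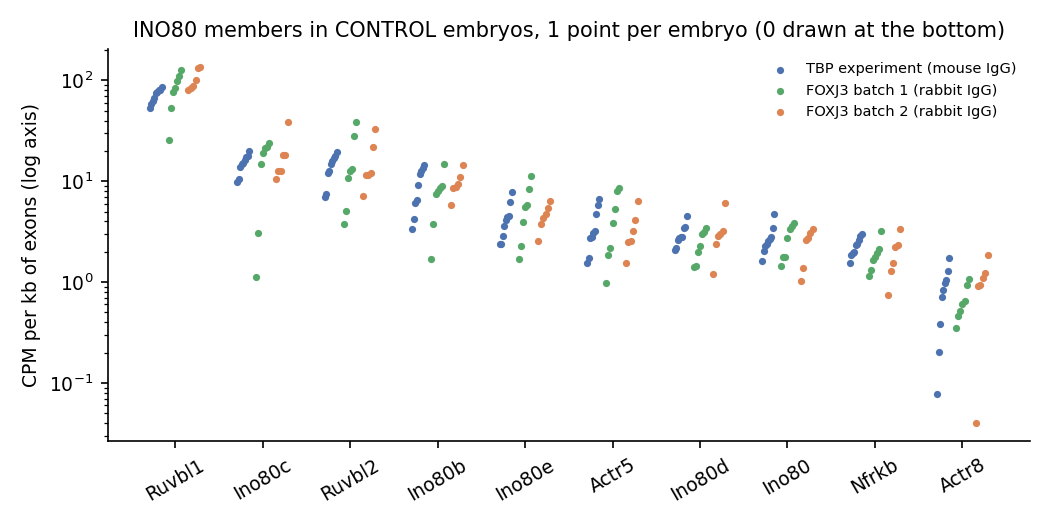
Level of each INO80 gene in the 22 CONTROL embryos, in CPM per kb of exons on a log axis, 1 point per embryo, coloured by set of CONTROL embryos. A value of 0, in 1 embryo for Actr8, is drawn at the bottom of the axis. Ruvbl1 has the highest mean, at 83.1, and Ino80b follows Ruvbl2 at 8.77 on this scale.

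Upon TBP LOF most genes of the complex were down-regulated. On the ERCC scale 7 of the 9 other genes were lower and 0 higher at an adjusted p under 0.05 (edgeR), where 29.7% of all 19357 features were called lower and 1.34% higher. Among the 8588 genes with a mean of at least 10 normalized reads, 48.7% were called lower. The median log2 fold change of the 9 was −1.85, against −0.70 for all genes tested and −0.90 for these 8588 genes. How many of all genes had LOF and CONTROL groups without overlap was not counted. Missing overlap is therefore given below as a description and not as a trait of these genes.

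Ino80b had 2.17 to 15.7 normalized reads in TBP LOF embryos (median 7.32) and 9.84 to 53.7 in CONTROL embryos (median 28.6). The CONTROL median lay above all 9 LOF embryos, and 8 were below the lowest CONTROL embryo. The mean ratio in the fit was 4.33-fold lower, rank 2 among the 10 genes, and 1.41 below the median of all genes on the log2 scale. These values rest on 4 to 15 reads per LOF embryo and 16 to 40 per CONTROL embryo.

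Ino80c, the partner of ACTR5, had the lowest fold change of the 10. It had 3.45 to 21.5 normalized reads in LOF (median 13) against 58.5 to 149 in CONTROL embryos (median 99.8), and the groups did not overlap. Its log2 fold change was −2.92 ± 0.34 (adjusted p = 3.54e-09). Actr5 itself had 0 to 16.4 in LOF (median 10.3) and 16.3 to 75.2 in CONTROL embryos (median 28.9). A single LOF embryo had no Actr5 read, 8 of 9 were below the lowest CONTROL embryo, and the log2 fold change was −2.0 ± 0.44 (adjusted p = 0.000272).

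Both genes of the ring ATPases were lower upon TBP LOF. Ruvbl1 had 46.5 to 154 normalized reads (median 64.3) in LOF and 226 to 404 (median 305) in CONTROL embryos, which gave a log2 fold change of −1.96 ± 0.30 (adjusted p = 8.26e-07). Ruvbl2 had 9.53 to 40.7 (median 27.8) and 48.2 to 130 (median 95.3), a log2 fold change of −1.85 ± 0.33 (adjusted p = 1.13e-05). Neither pair of groups overlapped.

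Of the animal-specific subunits, Nfrkb and Ino80e were lower and Ino80d did not pass the test. Nfrkb had 3.86 to 32.2 normalized reads in LOF (median 16.9) and 39.0 to 89.8 in CONTROL embryos (median 59.1), with no overlap, and a log2 fold change of −1.81 ± 0.36 (adjusted p = 5.66e-05). Ino80e had 7.32 to 57.2 (median 12.3) and 40.6 to 111 (median 71.3), a log2 fold change of −1.93 ± 0.37 (adjusted p = 3.24e-05). Ino80e overlapped through 1 LOF embryo, at 57.2. Ino80d had 13.3 to 137 (median 67.2) and 83.1 to 164 (median 111), a log2 fold change of −0.71 ± 0.32 (adjusted p = 0.0894), which was within 0.01 of the median of all genes.

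The motor gene Ino80 had 1.84 to 41.8 normalized reads in LOF (median 14.1) and 25.8 to 62.3 in CONTROL embryos (median 40.6), with 6 of 9 LOF embryos below the lowest CONTROL embryo. Its log2 fold change was −1.18 ± 0.40 (adjusted p = 0.0178). Actr8 had 1.23 to 17.5 (median 6.56) and 1.66 to 30.9 (median 19.9), and only 1 LOF embryo lay below the lowest CONTROL embryo. Its log2 fold change of −1.13 ± 0.52 did not pass (adjusted p = 0.0946). Without TBP LOF embryo 1 or embryo 8, Ino80d (−0.87 and −0.83) and Actr8 (−1.38 and −1.35) both passed, at adjusted p from 0.0402 to 0.0493.

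Scaling on all genes (TMM) in place of the ERCC spike-ins moved the median of all genes from −0.70 to 0.13 and the share of calls that were lower from 95.7% to 49.6%. Under TMM 5 of the 9 genes were called lower, where 12.7% of all features were called lower and 12.8% higher. They were Ino80c (−1.85), Ino80e (−1.16), Ruvbl1 (−1.13), Nfrkb (−0.95) and Ruvbl2 (−0.86). Ino80 (−0.45, adjusted p = 0.311) and Actr5 (−1.03, adjusted p = 0.0550) lost their calls, and Ino80d turned to 0.06 without a call on either scale. Ino80b was at −1.24 ± 0.36 under TMM.

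**Figure D2:**
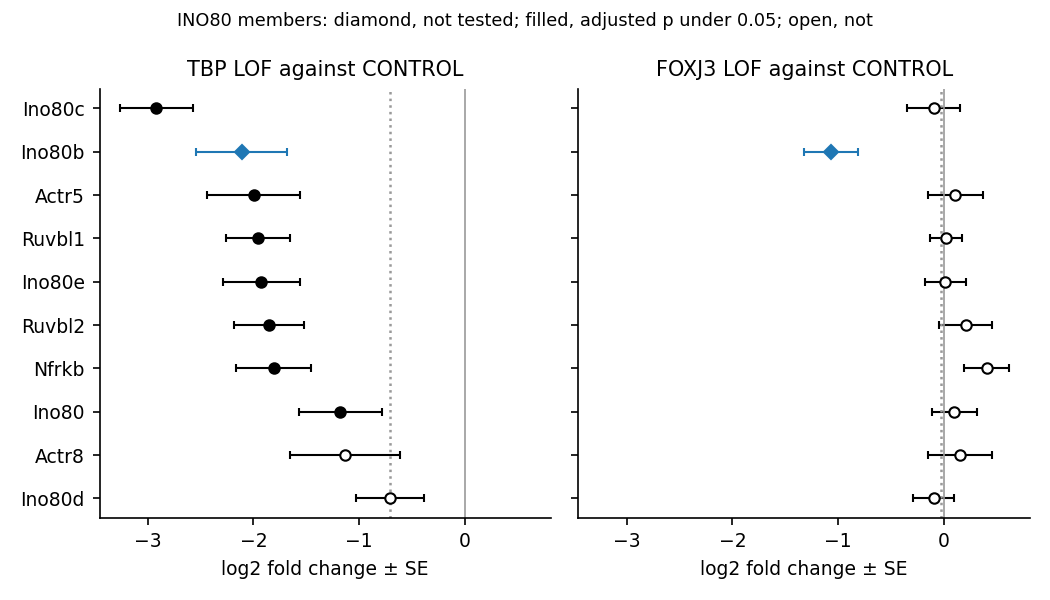
Log2 fold change of each INO80 gene, LOF over CONTROL, upon TBP LOF (ERCC scaling) and upon FOXJ3 LOF (TMM scaling, batch as covariate), with bars of ±1 SE, a dotted line for the median of all genes and a solid line at 0. Filled circles passed an adjusted p under 0.05, open circles did not, and Ino80b (diamond) was not tested. Upon TBP LOF the 10 genes lie between −2.92 and −0.71, while upon FOXJ3 LOF only Ino80b, the gene selected on this value, lies below −1.

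Shares of the reads on the 10 genes need no scaling, and are given as a description with no test. Ino80d took 26.1% ± 9.63 (SD, n = 9) in LOF and 13.7% ± 2.64 (n = 9) in CONTROL embryos. Ino80c took 5.62% ± 3.6 and 11.3% ± 2.54. Ruvbl1 took 29% ± 7.60 and 35.0% ± 1.88. The ranges overlapped for each of these genes, as for Ino80d at 10.1% to 41.9% in LOF and 9.71% to 17.0% in CONTROL embryos. The share of Ino80b was 2.91% ± 1.18 in LOF and 3.92% ± 2.02 in CONTROL embryos, and these ranges overlapped (1.44% to 4.94% and 1.31% to 6.98%).

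Upon FOXJ3 LOF Ino80b, which was not tested, was lower, and the other 9 genes did not pass the test. Ino80b had 4.18 to 31.3 normalized reads (median 12.6) in 16 LOF embryos and 6.56 to 44.2 (median 28.0) in 13 CONTROL embryos. The CONTROL median lay above 15 of 16 LOF embryos, 3 of 16 were below the lowest CONTROL embryo, and the ranges overlapped. The difference was 2.09-fold (log2 fold change −1.06 ± 0.26), from 2 to 34 reads per LOF embryo and 6 to 57 per CONTROL embryo.

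The same embryos are described by library batch next, and since they are the ones on which Ino80b was selected, the batches are no independent replication. In batch 1, Ino80b stood at 10.7 ± 3.51 (SD, n = 9) in LOF and 23.8 ± 12.1 (n = 7) in CONTROL embryos. All 9 LOF embryos were below the CONTROL median, and 2 of 9 were below the lowest CONTROL embryo. The log2 fold change was −1.16 in this batch alone. In batch 2 Ino80b stood at 15.9 ± 8.09 (n = 7) and 31.6 ± 7.44 (n = 6), with a log2 fold change of −0.96. There 6 of 7 LOF embryos were below the CONTROL median, and 6 of 7 below the lowest CONTROL embryo. Only 1 LOF embryo of batch 2, at 31.3, lay above the CONTROL median.

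**Figure D3:**
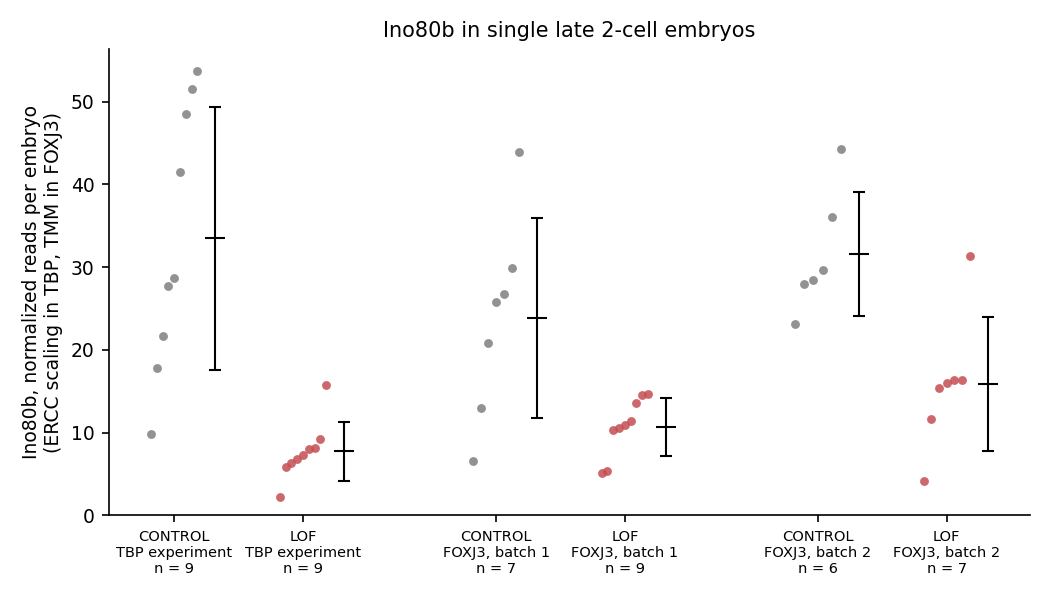
Normalized reads of Ino80b in each embryo, by experiment and batch, LOF beside CONTROL, with the mean and an error bar of ±1 SD beside the points. Scaling is on ERCC for TBP and by TMM for FOXJ3. In TBP LOF embryos the values run from 2.17 to 15.7 against 9.84 to 53.7 in CONTROL, and in FOXJ3 LOF embryos from 4.18 to 31.3 against 6.56 to 44.2.

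The 2 lowest FOXJ3 CONTROL values of Ino80b, 12.9 and 6.56, came from the 2 batch 1 embryos that stood apart. Their sums over the other 9 genes were also low, at 497 and 403 normalized reads, against at least 729 in the other CONTROL embryos. Leaving out the 2 lowest CONTROL values raises the lowest one by construction, so what follows is a description. Without these 2 embryos the lowest CONTROL value of Ino80b was 20.8, and the log2 fold change was −1.20 ± 0.24. Below the lowest CONTROL value then lay 15 of 16 LOF embryos, against 3 of 16 with all embryos kept. Of the 9 other genes 0 were called without these 2 CONTROL embryos (edgeR), while Ino80b was not tested.

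The mCherry-Trim21 transcript had medians of 351 CPM in FOXJ3 LOF and 839 CPM in CONTROL embryos. They were 352 and 819 CPM in batch 1 and 316 and 1577 CPM in batch 2. The log2 fold change was −1.0 ± 0.33, at an unadjusted p = 0.00402 and an adjusted p = 0.649 over all features (edgeR). This amount went along with LOF, so the 2 cannot be fully told apart. With the mCherry-Trim21 amount as a further covariate Ino80b was at −1.02. On the ERCC scale it was at −0.86, where the median of all genes was 0.15.

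None of the other 9 genes passed upon FOXJ3 LOF. With edgeR 0 of 9 were called, 0 had an unadjusted p under 0.05 and DESeq2 called 0, where 0.0102% of all 19518 features were called lower and 0.0% higher. Their log2 fold changes ran from −0.09 to 0.41 (median 0.10, all genes −0.03), at adjusted p from 0.882 to 0.999. Ruvbl1 had the smallest error of the 9, with 263 to 498 normalized reads in LOF (median 342) and 117 to 484 in CONTROL embryos (median 352), which gave a log2 fold change of 0.03 ± 0.15. The groups overlapped throughout.

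The widest difference among these 9 was that of Nfrkb, which had 34.8 to 113 normalized reads in LOF (median 52.1) and 15.6 to 94.5 in CONTROL embryos (median 37.0), which gave a log2 fold change of 0.41 ± 0.21. Ruvbl2 had 49.4 to 189 (median 113) and 26.3 to 206 (median 68.8), a log2 fold change of 0.21 ± 0.25. Both genes overlapped between the groups. Ino80c had 36.9 to 147 (median 92.5) and 7.66 to 212 (median 95.5), a log2 fold change of −0.09 ± 0.25.

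The remaining genes lay near equality. The log2 fold change was 0.10 ± 0.21 for Ino80, −0.09 ± 0.19 for Ino80d, 0.01 ± 0.19 for Ino80e, 0.11 ± 0.26 for Actr5 and 0.15 ± 0.30 for Actr8. A p that misses the threshold does not show that these levels were equal. Without the 2 CONTROL embryos that stood apart the 9 log2 fold changes ran from −0.32 ± 0.18 (Ino80c) to 0.33 ± 0.22 (Nfrkb), with a median of −0.01. Ruvbl2 was then at 0.03 and Ruvbl1 at −0.11, and the lowest CONTROL values were 304 normalized reads for Ruvbl1, 52.1 for Ruvbl2 and 64.3 for Ino80c. A different effect of FOXJ3 LOF in the batches was found for 0 of 9 with edgeR (0 at an unadjusted p under 0.05, and 0 with DESeq2), where 0.0% of all features passed.

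Ino80b also took a smaller part of the reads on the 10 genes. Its share was 0.51% to 3.19% (median 1.42%) in FOXJ3 LOF embryos and 1.60% to 3.95% (median 3.33%) in CONTROL embryos. Without the 2 CONTROL embryos that stood apart the lowest CONTROL share was 2.12% (median 3.39%), and 13 of 16 LOF embryos lay below it. By batch, the share was 1.22% ± 0.44 (SD, n = 9) against 2.83% ± 0.77 (n = 7) in batch 1 and 1.83% ± 0.86 (n = 7) against 3.32% ± 0.67 (n = 6) in batch 2. These shares use the same Ino80b reads that selected the gene.

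**Figure D4:**
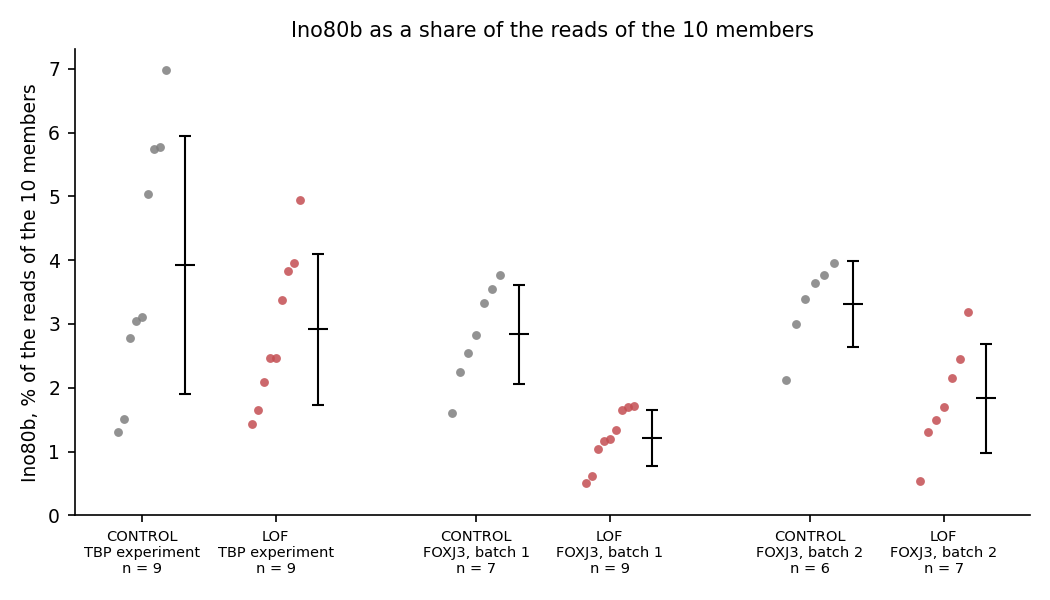
Share of Ino80b among the reads on the 10 INO80 genes in each embryo, in percent, by experiment and batch, LOF beside CONTROL, with the mean and an error bar of ±1 SD beside the points. The FOXJ3 LOF median is 1.42% against 3.33% in CONTROL, and the TBP groups, at 2.47% and 3.11%, overlap widely.

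The sum over the 9 genes without Ino80b was taken on the ERCC scale for TBP and the TMM scale for FOXJ3, so its levels are compared within each experiment only. It was 129 to 435 normalized reads (median 272) in TBP LOF and 677 to 1167 (median 796) in TBP CONTROL embryos, with no overlap. In FOXJ3 LOF embryos it was 655 to 1014 (median 855) against 403 to 1124 (median 885) in CONTROL embryos. Without the 2 CONTROL embryos that stood apart, the lowest CONTROL sum was 729 (median 904), and 2 of 16 LOF embryos, at 655 and 724, lay below it.

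Whether the LOF effects themselves differed was tested in 1 fit over all 47 embryos on the ERCC scale. The TBP effect was below the FOXJ3 effect for 7 of the 9 genes, where 28.0% of 19658 features were below and 0.911% above. With filterByExpr, a stricter filter on low counts, 5083 of 11123 features were below and 79 above. The difference in log2 fold change was −3.07 for Ino80c (adjusted p = 1.13e-06), −2.18 for Ruvbl1 (adjusted p = 3.28e-06) and −1.43 for Ino80 (adjusted p = 0.0195). Ino80e, Actr5, Nfrkb and Ruvbl2 lay between −2.37 and −2.14. Ino80d (−0.81, adjusted p = 0.126) and Actr8 (−1.42, adjusted p = 0.0884) did not pass. Ino80b, selected on both effects, had a difference of −1.26 ± 0.53. The median difference of all genes in this fit was −0.88. Under TMM scaling 5 of 9 passed, all below, where 10.9% of all features were below and 10.7% above.

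Some of these genes overlap others. The counting is not stated to use strand in the sources used here, so reads from overlapping exons may belong to either gene. The antisense Gm44287 shares 91 exon bases with Ino80b but had 4 reads over 2 of 49 embryos. Wbp1, which starts 205 bases downstream of Ino80b on the same strand and was looked at after the values were seen, had 298 reads in 49 embryos. It had a log2 fold change of 0.51 ± 0.70 upon TBP LOF (adjusted p = 0.646) and −0.68 ± 0.41 upon FOXJ3 LOF (adjusted p = 0.915).

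Most of the overlaps named for the other genes were larger. Hirip3, whose product binds histones and the chaperone HIRA, shares 150 exon bases with Ino80e and starts 405 bases from it. It had a log2 fold change of −0.00 upon TBP LOF (adjusted p = 1) and −0.21 upon FOXJ3 LOF (adjusted p = 0.954), while Ino80e was at −1.93 and 0.01. Gys1, a glycogen synthase, shares 310 exon bases with Ruvbl2 and was lower upon TBP LOF (−1.61 ± 0.38, adjusted p = 0.000611). Ino80dos, antisense to Ino80d, shares 431 bases and did not pass (−1.07, adjusted p = 0.0812, and −0.66 upon FOXJ3 LOF, adjusted p = 0.833). Doc2a, which encodes a calcium sensor of synaptic vesicles, shares 1103 exon bases with Ino80e. It had 140 reads in 49 embryos and was lower upon TBP LOF (−2.09 ± 0.81, adjusted p = 0.0419). Il17rb over Actr8 (141 exon bases) and Lhb over Ruvbl2 (138) did not pass in either comparison. Mir3474, a miRNA gene on the strand of Actr5 that was looked at after its values were seen, shares 8 exon bases with it, had 40 reads and was lower upon TBP LOF (−3.01 ± 1.01, adjusted p = 0.0176). How far shared reads enter the values of Ino80e, Ruvbl2, Ino80d, Actr5 and Actr8 was not tested.

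Beyond the 10 genes, 27 genes of related complexes were counted, and upon TBP LOF 19 of the 27 were lower on the ERCC scale (median log2 fold change −1.22). The shares called lower on that scale were 29.7% of all features and 48.7% of genes with a mean of at least 10 normalized reads. Under TMM 7 were lower and 4 higher, where 12.7% and 12.8% of all features were. The accessory subunits of INO80 were lower in 6 of 6 (2 of 6 under TMM), with the smallest adjusted p for Tfpt, a subunit of the animal-specific part, at −2.34 ± 0.33 (adjusted p = 1.85e-07). Actb in this list shares sequence with near-identical copies, and its value is uncertain.

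The complexes that share the RUVBL ring were lower in part. In SRCAP, which deposits H2A.Z, 4 of 6 were lower, with the smallest adjusted p for the actin-related Actr6 at −2.80 ± 0.45 (adjusted p = 1.52e-06), while Yeats4 had 0.08. In TIP60, an acetyltransferase complex, 5 of 11 were lower, a share near the 48.7% above, with the smallest adjusted p for the bromodomain gene Brd8 at −1.64 ± 0.34 (adjusted p = 0.000133). In the same list Epc1 (−0.04), Ing3 (0.10), Morf4l2 (−0.07) and Ep400 (−0.24) did not pass. Under TMM the split was 2 lower and 1 higher in SRCAP and 1 lower and 3 higher in TIP60. The higher ones there were Yeats4 (0.97), Epc1 (0.76), Ing3 (0.87) and Morf4l2 (0.72).

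The H2A.Z genes H2afv (−1.59 ± 0.32, adjusted p = 6.44e-05) and H2afz (−1.12 ± 0.31, adjusted p = 0.00368) were both lower on the ERCC scale and 1 of them under TMM. H2afz has near-identical copies, so its value is uncertain. RPAP3 and PIH1D1 work with the RUVBL ring in the R2TP chaperone. Rpap3 (−2.23 ± 0.34, adjusted p = 5.07e-07) and Pih1d1 (−1.30) were both lower, 1 of them under TMM. Upon FOXJ3 LOF edgeR called 0 of the 27 and DESeq2 called 0 (median −0.03). A single gene, Yy1, had an unadjusted p under 0.05 (log2 fold change 0.51, adjusted p = 0.803).

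**Figure D5:**
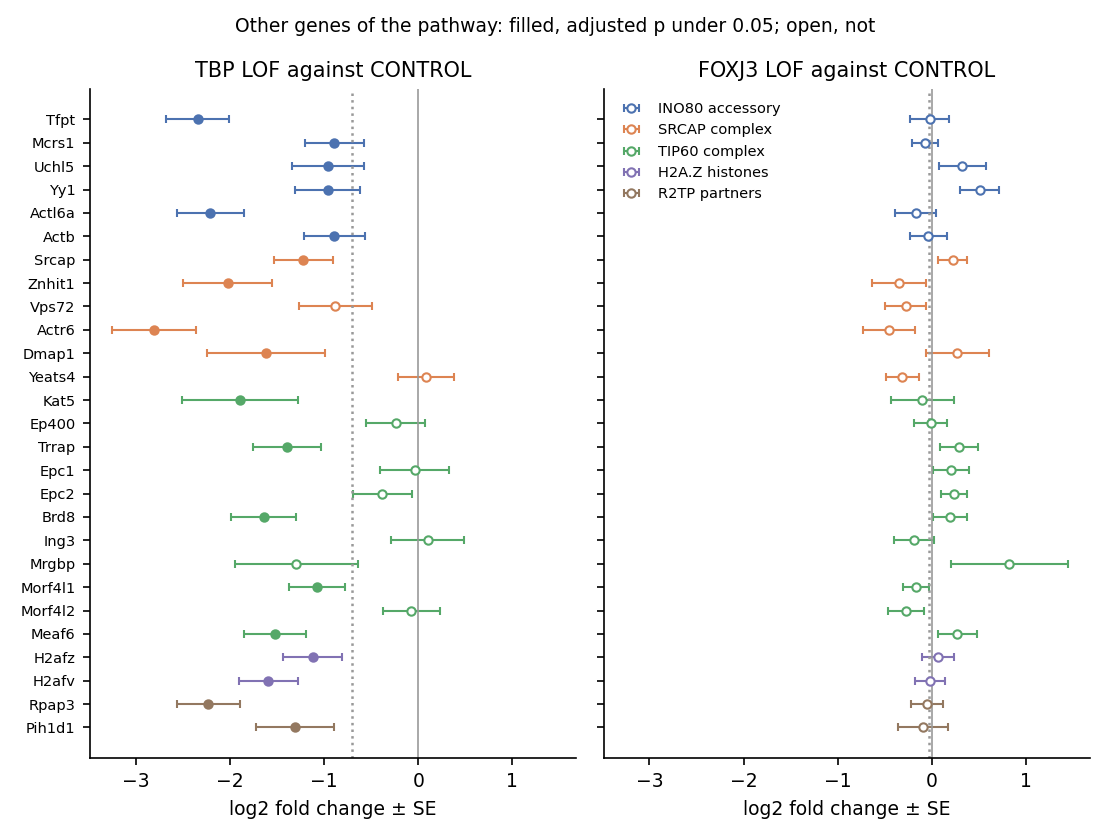
Log2 fold change of the 27 genes of related complexes upon TBP LOF and upon FOXJ3 LOF, coloured by list, with bars of ±1 SE, a dotted line for the median of all genes and filled circles for an adjusted p under 0.05. On the ERCC scale 19 of 27 genes are called lower upon TBP LOF, and 0 are called upon FOXJ3 LOF.

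Over the 22 CONTROL embryos, centred within the 3 sets, the 5 genes whose log2 levels followed Ino80b most closely among 9087 genes were Mum1 (Pearson r = 0.80), Rbm42, Gm21987, Anp32e and Cox17 (each 0.77). Of the complex, Ruvbl1 (0.55, rank 659) and Ino80c (0.52, rank 878) came highest and Ino80d lowest (−0.47, rank 8109). All values of an embryo come from 1 library and share its depth. The values within the complex rested on the 2 CONTROL embryos that stood apart. Without them r with Ino80b was 0.01 for Ruvbl1, −0.12 for Ino80c and −0.30 for Ino80d, and 0.66 for Mum1. Over all 45 pairs of the 10 genes the median r was 0.18 with these embryos and 0.01 without them, and the highest pair, Ino80c and Ruvbl1, had 0.86 and 0.33.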

How the data were processed

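Per the study's methods, the authors trimmed reads with Trimmomatic, kept the 5'-end reads, aligned them with STAR 2.7.11a to GRCm38 with the injected construct added and endogenous Trim21 masked, and counted genes and transposable elements with TEcount on gencode M20. The deposited values are estimated counts, all whole, which were used as deposited. The sources used here do not state how reads matching several places were shared, or whether strand was used.

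Embryos with at least 500000 reads, at least 1000 genes, at most 10% mitochondrial and at most 15% ERCC reads were kept (47 of 49). Features with a read in 25% or more of an experiment's embryos were tested with edgeR 4.0.16 (quasi-likelihood, two-sided, Benjamini-Hochberg over all features, threshold 0.05) in R 4.3.3. The TBP fit and the fit comparing the LOF effects used median-of-ratios size factors over ERCC transcripts (42 in the TBP fit), and the other fits used TMM. Batch was a covariate for FOXJ3. Normalized reads are reads divided by these size factors, and CPM scales the counts of each embryo to the same total. DESeq2 1.42.0, other scalings and filters, a replicate block, and leaving out each embryo were alternatives. The quasi-likelihood steps were tested on simulated data.

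Groups and batches came from the labels. P-values measure the spread between embryos, which the main fits took as independent. Which embryos shared a litter or a TBP collection day was not stated. The 10 genes, the lists and the motifs were chosen with earlier results of these data known. Named were all 10 genes, the targeted genes and construct, the lowest adjusted p per list and direction, overlapping genes, and the 5 genes most like Ino80b (log2 of normalized reads plus 1, genes with a mean of at least 10). List genes beyond that rule were named after their values were seen.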

Additional observations from a re-analysis of the deposited data

Results flagged for a closer look

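Within groups of 4 to 10 embryos, the highest or lowest value of a gene was compared with its nearest neighbour by Dixon's ratio. Of 60 such groups 4 had an embryo beyond the 95% limit, where chance gives about 1 in 20 groups. Ino80e was at 57.2 normalized reads in TBP LOF embryo 8, where the next embryo had 29.4 and the median was 12.3. Nfrkb was at 75.9 in embryo 4 of the batch 1 FOXJ3 CONTROL group, where the next had 45.9. Ino80c was at 212 in embryo 3 of the batch 2 FOXJ3 CONTROL group, with the next at 106, and Ino80d was at 268 in embryo 1 of the same group, with the next at 118.

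The TBP effect lay below the FOXJ3 effect by the test of the difference for 7 genes, on the ERCC scale and in log2 units. By the same test 28.0% of all 19658 features lay below, and the median difference of all genes was −0.88. The differences were −3.07 for Ino80c, −2.37 for Nfrkb, −2.35 for Actr5, −2.23 for Ruvbl2, −2.18 for Ruvbl1, −2.14 for Ino80e and −1.43 for Ino80. The 2 experiments differ in the antibody and its IgG and were done as separate sets, which cannot be told apart from the protein lost.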

How the results depend on the processing

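The direction of Ino80b was the same under all alternatives run. Ino80b was selected on this direction in the same embryos, so the kept direction is a description and no support. Upon TBP LOF its log2 fold change of −2.11 became −1.24 with TMM and −1.24 with DESeq2 size factors, and upon FOXJ3 LOF no alternative moved it beyond the spread between embryos. The 19 calls among the 27 related genes became 11 with TMM and 11 with DESeq2 size factors, 7 of them lower each time. Leaving out each embryo in turn gave 7 to 9 calls of 9 upon TBP LOF and 0 upon FOXJ3 LOF, with Ino80b at −2.29 to −1.96 and at −1.18 to −0.96. Among the 9 genes, calls were added by filterByExpr, which tests fewer genes, and by leaving out TBP LOF embryo 1 or 8. Among the 27, TMM added the 4 calls that were higher. Fold changes under no call changed sign in 40 cases, 38 of them upon FOXJ3 LOF.

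Replicate numbers were not taken as pairs. Numbered pairs correlated above 0.1 in 2 of 7 (TBP) and 3 of 12 (FOXJ3), and these 3 were all in batch 2. Low correlation cannot exclude that numbers follow a shared collection. The study's methods give at least 3 independent experiments. With a replicate block 7 of 9 genes were called upon TBP LOF (6 in the same embryos without it, chosen after the data were seen) and 0 upon FOXJ3 LOF, with Ino80b at −1.65 and −1.19. Among the sets of CONTROL embryos edgeR called 46 features and DESeq2 262, and upon FOXJ3 LOF 2 and 4, with 0 under the mCherry-Trim21 covariate and 0 in the numbered embryos both with and without the block. Low counts limit Ino80b, Actr5 and Actr8 the most.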
